A study of Mus musculus with 6 samples.

Results

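Mast cell genes were followed in messenger RNA of mouse salivary gland as a set of 9: the chymase genes Mcpt4 and Cma1, the carboxypeptidase gene Cpa3, the tryptase genes Tpsb2 and Tpsab1, the histamine enzyme gene Hdc, the IgE receptor subunit gene Ms4a2, the growth factor receptor gene Kit and the transcription factor gene Gata2. They were chosen by gene symbol, and all 9 were found among the 24054 genes of the count table. The bigenic animals carried K5-rtTA, in which the keratin 5 promoter of basal epithelial cells drives a doxycycline-dependent activator, together with TetO-RANKL, a RANKL transgene that this activator switches on. They are called K5-RANKL here. Controls were monogenic. Mice of either group were given doxycycline for 2 weeks, starting at an age of 9 weeks, through both diet and drinking water. There were 3 libraries in each group, every one made from the pooled salivary glands of 5 mice, so that p-values describe the spread between pools. The sources used here do not give the transgene of the controls, the strain and sex of the mice or which of the glands were taken.

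Mast cells are long-lived leukocytes of connective tissue and mucosa that grow under stem cell factor, the ligand of the receptor KIT. They store histamine and serine proteases bound to heparin in their granules and release them when IgE on the high-affinity receptor is crosslinked. In mouse, the granules of connective tissue mast cells hold chymases, tryptases and carboxypeptidase A3, while mucosal mast cells are known for other chymases such as those of Mcpt1 and Mcpt2.

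The libraries held between 13875951 and 17921815 counts. Spt1, a salivary protein gene, took 28.5 to 35.1% of the counts of a control library and 13.9 to 18.5% of a K5-RANKL library, and Tnfsf11, which encodes RANKL, read 405 to 723 CPM with the RANKL transgene switched on and 0.939 to 3.78 CPM without it. Levels are in CPM, counts scaled to a common library size that was adjusted by TMM (trimmed mean of M values). On this scale the log2 fold changes of the 14044 genes tested had a median of 0.01. By library totals it was 1.01, so that on that scale each log2 value below is about 1 higher. At 3 counts, a gene stands at 0.235 to 0.295 CPM in a control library and at 0.125 to 0.161 CPM in a K5-RANKL library. Except for Kit, every mast cell gene had at most 53 counts in any control, so counts are given beside CPM.

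The granule protease genes and Hdc were higher in K5-RANKL glands, and Kit was lower on the TMM scale but not by library totals. Gata2 did not pass the test on the TMM scale and Ms4a2 had too few counts to be tested. Of the 8 genes tested, 6 rose (Mcpt4, Cma1, Cpa3, Tpsb2, Tpsab1 and Hdc) and 1 fell (Kit) by edgeR's quasi-likelihood test at an adjusted p under 0.05. Of all genes tested 34.2% rose and 32.1% fell (66.2% in either direction), so a call alone does not set a gene apart here. The median log2 fold change over the 8 genes was 1.26, beside 0.01 over all genes. The same 6 genes had no overlap between groups upwards and Kit none downwards, as was so for 36.3% and 34.1% of all genes tested (70.4% in either direction). More cells of a type and more RNA per cell cannot be told apart in these bulk libraries. Cpa3, Tpsab1 and Hdc passed the filter on low counts through the K5-RANKL libraries, since not every control reached its level. Their presence among the 8 tested genes, and so in this count and median, depended on being high in that group.

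**Figure D1:**
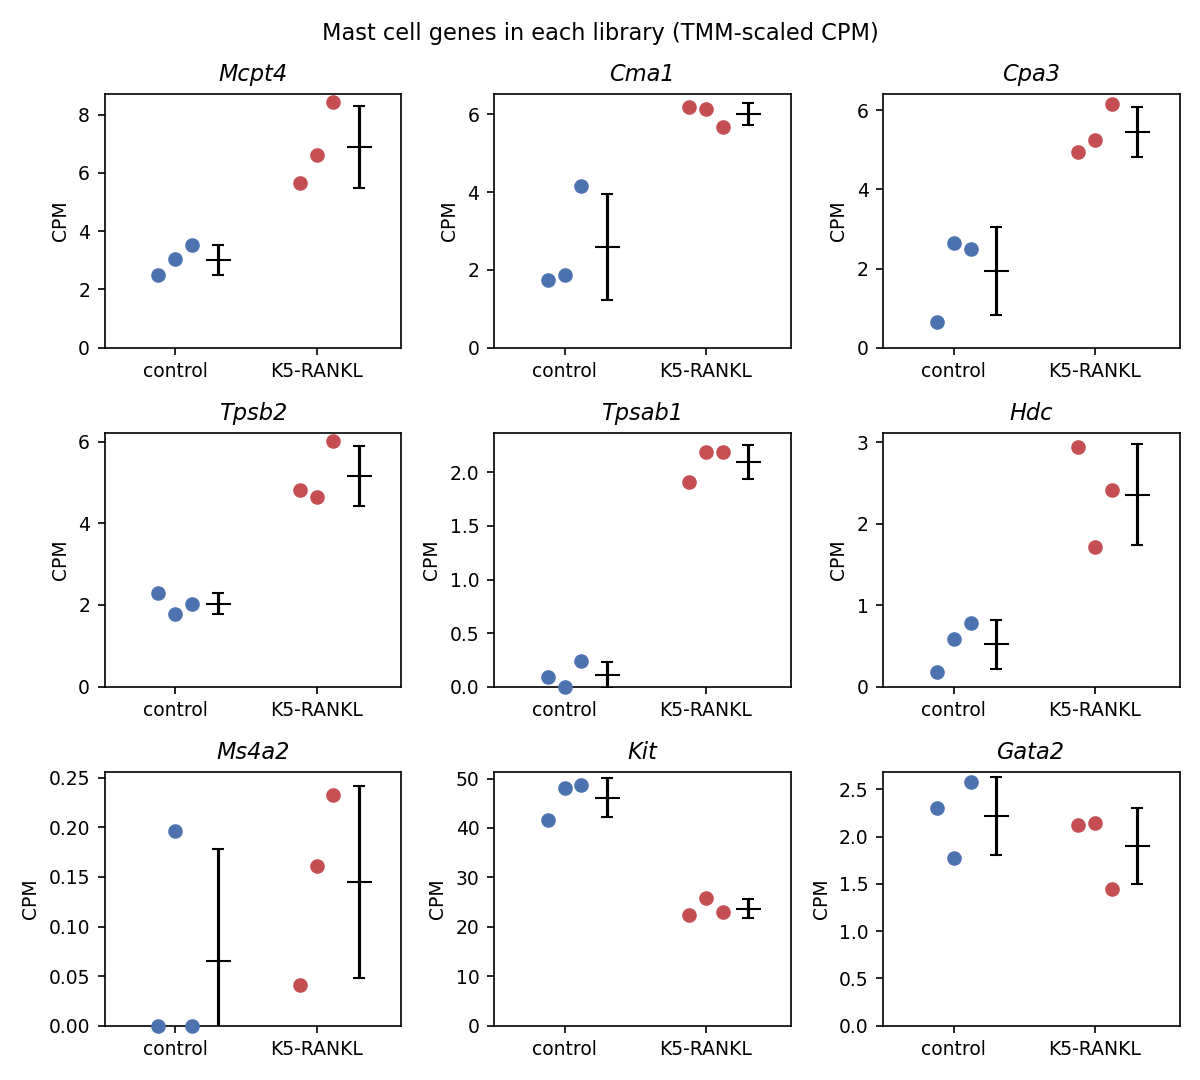
CPM (y axis, linear, own scale in each panel) of the 9 mast cell genes in 3 control (blue) and 3 K5-RANKL (red) libraries. Points are libraries in the order 1 to 3, and the black mark beside them is the mean with its SD, cut at 0. The groups are apart for Mcpt4, Cma1, Cpa3, Tpsb2, Tpsab1 and Hdc (higher in K5-RANKL) and for Kit (lower here, though its groups overlap by library totals), and overlap for Ms4a2 and Gata2.

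Mcpt4 encodes the chymase MCPT4 of connective tissue mast cells (Entrez 17227, chromosome 14 from 56059744 to 56062310 in GRCm38). Its counts were 27, 31 and 45 in controls and 136, 124 and 181 in K5-RANKL libraries, or 2.49, 3.04 and 3.52 against 5.64, 6.63 and 8.43 CPM. Every K5-RANKL library was above every control. The log2 fold change of Mcpt4 was 1.18 with an SE of 0.20, a 2.27-fold rise (edgeR adjusted p = 4.82e-05). Cma1, 115.1 kb away on the same chromosome (Entrez 17228, 55941451 to 55944675), encodes a second chymase, also called MCPT5, found in connective tissue mast cells. It had 19, 19 and 53 control counts and 149, 115 and 122 K5-RANKL counts (1.75, 1.87 and 4.15 against 6.18, 6.15 and 5.68 CPM). Control 3 was higher than the other controls and still below each K5-RANKL library. Cma1 rose 2.25-fold, or by 1.17 in log2 (SE 0.24; edgeR adjusted p = 0.000618), with 1.72 when control 3 was left out.

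Cpa3, the gene of mast cell carboxypeptidase A (Entrez 12873, chromosome 3 from 20215616 to 20242209), had 7, 27 and 32 control counts and 119, 98 and 132 K5-RANKL counts. In CPM these were 0.645, 2.65 and 2.50 against 4.94, 5.24 and 6.15, with control 1 far below the other controls. The 2.79-fold rise of Cpa3, 1.48 in log2 (SE 0.30, edgeR adjusted p = 0.000891), became 1.08 when control 1 was left out (edgeR adjusted p = 0.000323). Control 1 also had the lowest Hdc, Cma1 and Mcpt4 of the controls, but the highest Tpsb2. Control 1 also stood apart in a chi-square summed over genes, at 37.0 and 38.3 per gene against control 2 and control 3. Those other controls gave 6.26 against each other, and pairs of K5-RANKL libraries 12.5 to 23.1. Abundant genes weigh most in this sum, so it does not show a difference across all genes.

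Of all tested genes 11% had a larger log2 fold change than Cpa3, and 14.4% and 14.5% a larger one than Mcpt4 and Cma1. These genes lay in the upper part of the distribution of all genes and not at its end, where Tpsab1, with 1.52% of genes above it, was found. Cpa3 and Tpsab1 were among the tested genes through the K5-RANKL libraries, so their ranks depended on being high there. The rank of Tpsab1 also rests on 4 counts over all controls.

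The promoters of several of these genes hold the letters that GATA factors, the family of GATA2, are known to bind. The 250 bases before the RefSeq transcription start (GRCm38.p6) are printed for Mcpt4, Cma1, Cpa3 and Hdc, 4 genes that rose, and for Kit, which did not rise with them. The starts used for Hdc, Cpa3 and Ms4a2, and a further start each of Kit and Gata2, lie inside the annotated genes. Capitals mark the GATA words searched, which are AGATAA or TGATAA or AGATAG or TGATAG, and the TATA word TATAAA, each on either strand.
Mcpt4, chr14:56062311-56062560, minus strand: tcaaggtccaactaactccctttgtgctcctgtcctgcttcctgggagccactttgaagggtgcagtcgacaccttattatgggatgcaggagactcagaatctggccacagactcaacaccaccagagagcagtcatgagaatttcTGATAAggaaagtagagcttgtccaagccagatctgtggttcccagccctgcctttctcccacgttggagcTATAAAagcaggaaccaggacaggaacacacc
Cma1, chr14:55944676-55944925, minus strand: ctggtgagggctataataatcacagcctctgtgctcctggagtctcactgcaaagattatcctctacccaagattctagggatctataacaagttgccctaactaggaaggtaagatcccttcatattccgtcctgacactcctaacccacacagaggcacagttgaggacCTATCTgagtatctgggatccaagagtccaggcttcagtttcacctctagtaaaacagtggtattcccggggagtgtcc
Cpa3, chr3:20242182-20242431, minus strand: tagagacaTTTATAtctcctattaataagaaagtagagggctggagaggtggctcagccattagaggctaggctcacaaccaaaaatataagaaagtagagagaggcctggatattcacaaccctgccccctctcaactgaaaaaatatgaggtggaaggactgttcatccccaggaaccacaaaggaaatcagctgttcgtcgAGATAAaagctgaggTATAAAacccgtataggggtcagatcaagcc
Hdc, chr2:126618679-126618928, minus strand: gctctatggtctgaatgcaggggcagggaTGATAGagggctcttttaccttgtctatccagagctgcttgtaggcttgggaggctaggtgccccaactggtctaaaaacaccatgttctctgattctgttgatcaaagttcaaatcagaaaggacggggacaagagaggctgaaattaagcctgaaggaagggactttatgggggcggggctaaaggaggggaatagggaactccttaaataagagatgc
Kit, chr5:75574737-75574986, plus strand: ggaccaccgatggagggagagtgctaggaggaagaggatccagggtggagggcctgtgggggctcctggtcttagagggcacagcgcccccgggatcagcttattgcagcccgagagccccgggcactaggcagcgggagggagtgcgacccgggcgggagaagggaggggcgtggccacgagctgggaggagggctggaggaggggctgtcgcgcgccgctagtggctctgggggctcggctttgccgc
Of the 7 mast cell genes with a promoter in the RefSeq table, 5 held a GATA word in this window (Mcpt4, Cma1, Cpa3, Hdc and Ms4a2), and Kit and Gata2 held none. Over all 32536 distinct promoter windows of this length the share with such a word was 26.5%. The 7 genes had 9 windows and were counted by gene, while that share is of windows. The GATA word began 103 bases before the start in Mcpt4, 79 in Cma1, 46 in Cpa3 and 221 in Hdc. Mcpt4 and Cpa3 also held TATAAA, 32 and 31 bases before the start, and Cpa3 a second match 242 bases before it, where 12.3% of all windows held one. No match of the GATA and TATA words overlapped another. CATGTG and CACGTG, words that the mast cell factor MITF is known to bind, were in none of the 7 and in 17.7% of all windows. These matches are letters in a reference sequence, and binding was not measured. Tpsb2 and Tpsab1 have no entry in that table.

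The tryptase genes lie 20.7 kb apart on chromosome 17, and both rose. Tpsb2, which encodes the tryptase MCPT6 (Entrez 17229, 25366308 to 25368096), had 25, 18 and 26 control counts and 116, 87 and 129 K5-RANKL counts, or 2.30, 1.77 and 2.03 against 4.81, 4.65 and 6.01 CPM. It rose by 1.34 (SE 0.20, 2.53-fold, edgeR adjusted p = 1.59e-05), with each group close around its mean. Tpsab1, the gene of the tryptase MCPT7 (Entrez 100503895, 25343245 to 25345562), had 1, 0 and 3 control counts and 46, 41 and 47 K5-RANKL counts. That is 0.0922, 0 and 0.235 against 1.91, 2.19 and 2.19 CPM, at or under the level of 3 counts in every control. The fitted rise was 4.06 (SE 0.48, edgeR adjusted p = 8.52e-07), from 3.57 without control 2 to 5.25 without control 3. With 4 counts over all controls and 134 over all K5-RANKL libraries, the ratio of the groups was 17.6, with a 95% interval of 6.73 to 65.7 that covers counting error only.

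**Figure D2:**
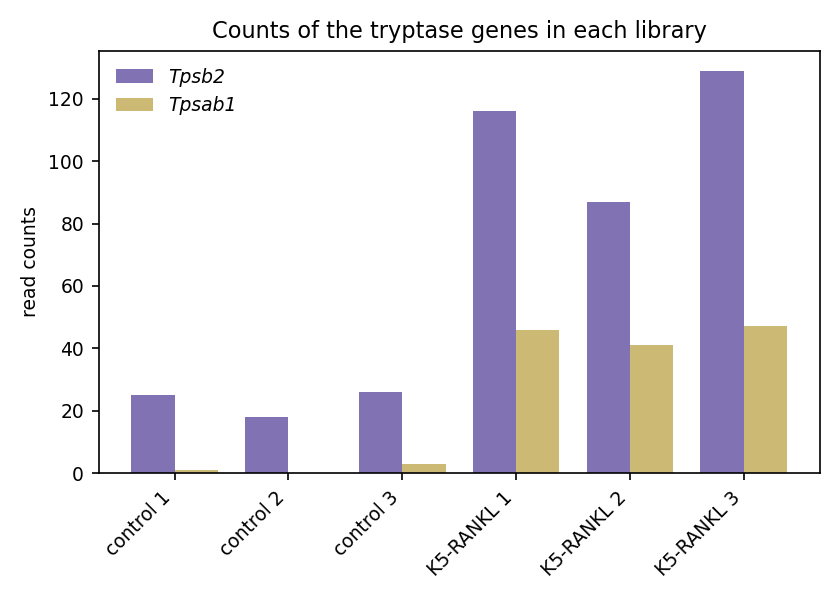
Read counts (y axis) of Tpsb2 and Tpsab1 by library, 3 per group. Tpsb2 holds 18 to 26 counts in controls and Tpsab1 at most 3, while the K5-RANKL libraries hold 87 to 129 and 41 to 47.

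Within a library the ratio of Tpsab1 to Tpsb2 does not depend on how libraries are scaled. With 0.5 added to each count, the log2 ratio was −4.09, −5.21 and −2.92 in controls and −1.33, −1.08 and −1.45 in K5-RANKL libraries, which put every K5-RANKL library above every control. The means differed by 2.79 (exact two-sided permutation test, p = 0.10, the smallest that 3 against 3 can give), and by 1.74 with 2 added to each count. This ratio was chosen after the values were seen. The transcripts of the tryptase genes share no stretch of 50 bases with each other or with another gene in GENCODE M21; the read length was not known. RefSeq lists Tpsab1 as a transcribed pseudogene in its C57BL/6J reference, and GENCODE lists it as protein coding. The part of mouse strain in the Tpsab1 difference was not tested. Of the protease genes beside them, Prss29 had 0 control counts and 6, 4 and 1 K5-RANKL counts and Tpsg1 had 1 count in controls and 2 in K5-RANKL libraries, all too few to test. Cacna1h, a calcium channel gene next to Tpsg1, rose by 1.42 (edgeR adjusted p = 0.00128) and was named after its value was seen.

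Hdc encodes histidine decarboxylase, the enzyme that makes histamine (Entrez 15186, chromosome 2 from 126593659 to 126624025). It had 2, 6 and 10 control counts and 71, 32 and 52 K5-RANKL counts, or 0.184, 0.589 and 0.782 against 2.95, 1.71 and 2.42 CPM. Both groups spread widely and did not overlap. Hdc rose by 2.15 (SE 0.37, 4.45-fold, edgeR adjusted p = 7.36e-05), by 1.77 without control 1 and by 2.62 without control 3. Neutrophils and other myeloid cells can also make this enzyme. Of 6 neutrophil markers S100a8, S100a9 and Cxcr2 were tested and rose, as 34.2% of all genes tested did, Cxcr2 by 1.53 (SE 0.25, edgeR adjusted p = 4.15e-05). These 3 markers passed the filter through the K5-RANKL libraries, while Mpo and Elane, at 0.269 and 0.0829 CPM in controls and 0.214 and 0.0334 CPM in K5-RANKL libraries on average, had too few counts to test. The summed level of the 6 neutrophil markers was 1.38 to 3.13 CPM in controls and 5.59 to 7.14 CPM in K5-RANKL libraries, none of them at 0 throughout, and their part in the rise of Hdc was not tested. Hnmt, which encodes the enzyme that methylates and inactivates histamine, fell by 0.45 (SE 0.13, edgeR adjusted p = 0.00536) from 15.2 ± 2.65 to 11.1 ± 1.10 CPM (SD, n = 3 each), although the groups overlapped and it did not fall by library totals. Aoc1, the gene of the other histamine-degrading enzyme, diamine oxidase, rose by 2.72 (SE 0.43, edgeR adjusted p = 2.76e-05), and the receptor genes Hrh1 and Hrh2 rose by 1.74 and 1.37. These 3 were named after their values were seen, and passed the filter through the K5-RANKL libraries. Their control counts were low, at 1, 3 and 6 for Aoc1, 3, 3 and 3 for Hrh1 and 5, 7 and 4 for Hrh2.

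Ms4a2, which encodes the beta chain of the high-affinity IgE receptor (Entrez 14126, chromosome 19 from 11615517 to 11623790), had 0, 2 and 0 control counts and 1, 3 and 5 K5-RANKL counts. At this depth a difference was not detectable: both groups lay around the level of 3 counts and overlapped, and without a filter on low counts edgeR gave adjusted p = 0.416. The alpha chain gene Fcer1a was as scarce, with 2 counts over the controls and 12 over the K5-RANKL libraries. Fcer1g, the gene of the gamma chain, which other immune receptors share, rose by 1.79 (SE 0.10, edgeR adjusted p = 5.64e-11), with mean levels of 9.93 and 34.5 CPM.

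Kit, the receptor of stem cell factor (Entrez 16590, chromosome 5 from 75574987 to 75656722), went against the granule protease genes and Hdc on the TMM scale. It had 451, 489 and 623 control counts and 539, 483 and 492 K5-RANKL counts, which on the TMM scale were 41.6, 48.0 and 48.7 against 22.4, 25.8 and 22.9 CPM. Kit fell by 0.96 (SE 0.09, 1.95-fold, edgeR adjusted p = 4.4e-08), but stood at 0.03 by library totals (edgeR adjusted p = 0.789), where the groups overlapped at 28.1 to 35.2 and 32.8 to 34.1 CPM. Relative to the median of all genes the change was −0.97 by TMM and −0.98 by library totals. Kitl, the gene of stem cell factor itself, fell by 0.49 (SE 0.14, edgeR adjusted p = 0.0115) from 46.6 ± 4.10 to 33.3 ± 6.89 CPM (SD, n = 3 each). That call was lost without control 1 and by library totals.

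Kit is also made by epithelial cells of salivary ducts and by melanocytes. Of 7 duct epithelial markers 4 rose, Krt19 by 2.61, Krt8 by 1.11, Epcam by 0.79 and Krt18 by 0.18, and 3 fell, Ascl3 by 2.37, Elf5 by 2.12 and Krt7 by 0.19. All of these values were named after they were seen, except that of Krt18, the marker with the highest mean CPM over all 6 libraries. The summed level of all 7 duct epithelial markers was 975 to 1040 CPM in controls and 1280 to 1320 CPM in K5-RANKL libraries. Over all genes tested 34.2% rose and 32.1% fell. Of 5 melanocyte markers only Pmel could be tested and did not pass (0.37, edgeR adjusted p = 0.19), and the summed level was 1.49 to 2.12 and 2.19 to 2.24 CPM. Mlana had 0 control counts and 5 K5-RANKL counts, and Tyr had 2 and 0. The part of these cells in the level of Kit was not tested.

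Gata2 encodes a transcription factor needed for mast cells and also made by blood vessel endothelium (Entrez 14461, chromosome 6 from 88193891 to 88207032). It had 25, 18 and 33 control counts and 51, 40 and 31 K5-RANKL counts, or 2.30, 1.77 and 2.58 against 2.12, 2.14 and 1.44 CPM, with overlapping groups. Its log2 fold change was −0.24 (SE 0.25, edgeR adjusted p = 0.416). By library totals the sign turned and Gata2 passed at 0.76 (SE 0.26, edgeR adjusted p = 0.00763), which is −0.25 relative to the median of all genes on that scale. Of 10 endothelial markers 3 rose, 2 fell and 5 missed the threshold (median 0.15), where 34.2% of all genes tested rose and 32.1% fell. Pecam1, with the highest mean CPM over all libraries, rose by 0.37 (SE 0.08, edgeR adjusted p = 0.000379). Their summed level was 183 to 207 CPM in controls and 222 to 231 CPM in K5-RANKL libraries, and their part in the level of Gata2 was not tested.

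**Figure D3:**
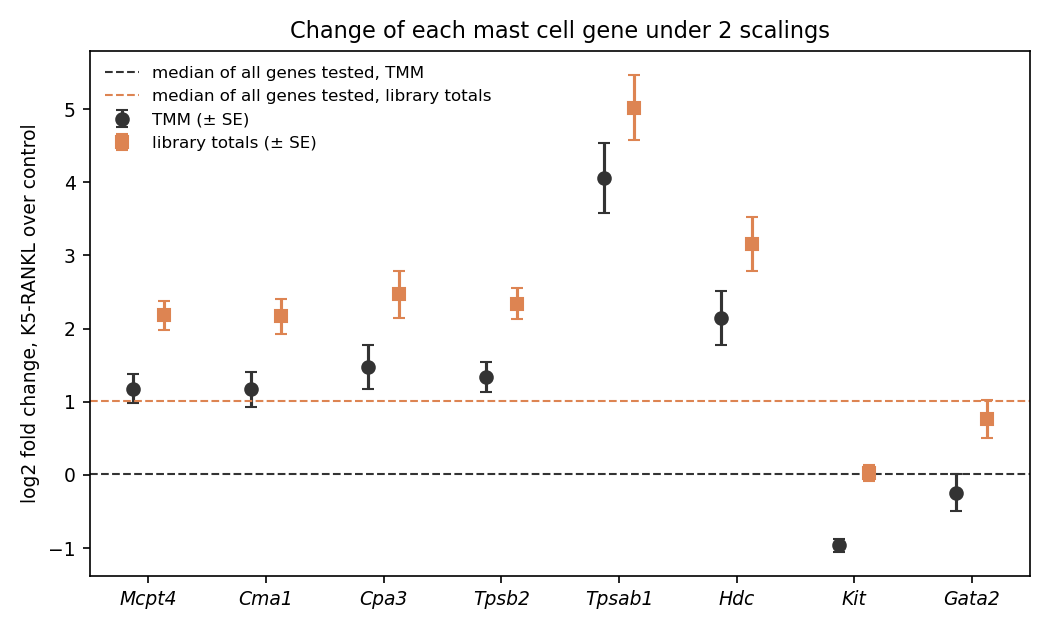
Log2 fold change of K5-RANKL over control (y axis) of the 8 mast cell genes tested, with TMM scaling (circles) and by library totals (squares). Bars are SE and dashed lines are the median of all 14044 genes on each scale, 0.01 and 1.01. Kit and Gata2 change sign between the scalings, and 6 genes lie above the median line on both.

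By library totals 7 of the 8 genes tested rose and none fell, where 83.5% of all genes rose and 4.97% fell. Mcpt4, Cma1, Cpa3, Tpsb2, Tpsab1 and Hdc rose on both scales. Their distance from the median of all genes differed by no more than 0.04 between the scales. Those distances ran from 1.16 for Cma1 to 4.05 for Tpsab1 by TMM.

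Read per kilobase of exon, which allows levels of different genes to be set side by side, the order of the genes differed between groups. In controls Kit stood highest at 5.17 ± 0.443 CPM per kb, ahead of Mcpt4 at 2.72 ± 0.466 and Cma1 at 2.37 ± 1.24 (SD, n = 3 each). Tpsb2 at 1.28 ± 0.169 and Cpa3 at 1.27 ± 0.737 CPM per kb came next, then Gata2 at 0.411 ± 0.0767, Hdc at 0.0812 ± 0.0478 and Tpsab1 at 0.052 ± 0.0565. Ms4a2 was last at 0.0233 ± 0.0403. The SD ranges of Mcpt4 and Cma1 met, as did those of Cma1, Tpsb2 and Cpa3 with each other, and those of Hdc, Tpsab1 and Ms4a2. In K5-RANKL glands Mcpt4 at 6.23 ± 1.28 and Cma1 at 5.51 ± 0.257 CPM per kb led, and their SD ranges met. Cpa3 at 3.59 ± 0.415, Tpsb2 at 3.24 ± 0.465 and Kit at 2.66 ± 0.209 CPM per kb followed, each with an SD range that reached that of its neighbour. Tpsab1 at 1.00 ± 0.0779, Hdc at 0.369 ± 0.097 and Gata2 at 0.352 ± 0.0732 CPM per kb came last before Ms4a2 at 0.0515 ± 0.0344, and the ranges of Hdc and Gata2 met. Lengths are the union of all GENCODE exons of a gene, so genes with long rare isoforms are understated.

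The make-up of the granule protease counts differed between groups by less than it did among controls. Of the counts of Mcpt4, Cma1, Cpa3 and Tpsb2 together, Mcpt4 took 32.0% ± 2.93 in controls and 29.2% ± 2.97 in K5-RANKL libraries, Cma1 26.1% ± 7.15 and 25.8% ± 3.69, Cpa3 19.3% ± 9.78 and 23.1% ± 0.26, and Tpsb2 22.6% ± 8.30 and 21.9% ± 1.23 (SD, n = 3 each). Ratios to Cpa3 within a library do not depend on how libraries are scaled. From control to K5-RANKL the mean ratio changed by −0.52 for Mcpt4, −0.39 for Cma1 and −0.38 for Tpsb2 (exact two-sided permutation tests, p = 0.4, 0.5 and 1; adjusted over 8 ratios 0.571, 0.571 and 1), and by −0.01, 0.03 and 0.35 without control 1. These p-values do not show that the proportions were equal.

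For Kit, Gata2 and Tpsab1 the ratio to Cpa3 did not overlap between groups. Cpa3 itself rose by 1.48 on the TMM scale, so a gene with no change there falls in its ratio to Cpa3. Gata2, at −0.24 on that scale, did not pass the test. The share of all genes with no overlap in this ratio was not computed. The log2 ratio of Kit to Cpa3 was 5.91, 4.15 and 4.26 in controls and 2.17, 2.30 and 1.89 in K5-RANKL libraries, a difference of −2.65. That of Gata2 was 1.77, −0.57 and 0.04 against −1.21, −1.28 and −2.07, a difference of −1.94. Tpsab1 was higher by 2.41, and by 1.40 with 2 added to each count. Each of these 3 had an exact two-sided permutation p = 0.1, the smallest possible with 3 against 3, which became 0.267 adjusted over 8 ratios. Leaving out control 1, where Cpa3 was low, moved Kit to −2.09, Gata2 to −1.26 and Tpsab1 to 3.14, and leaving out control 2 moved Tpsab1 to 1.41. The ratio of Hdc differed by 0.54, with overlapping groups (exact permutation p = 0.2), and by 0.30 without K5-RANKL 1. That of Ms4a2, which rests on a few counts, differed by −0.78 (exact permutation p = 0.5), from −0.24 without K5-RANKL 1 to −1.56 without control 3, and by −1.60 with 2 added to each count.

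The granule proteases were higher together with leukocyte markers, and per leukocyte marker the groups overlapped. The summed level of Mcpt4, Cma1, Cpa3 and Tpsb2 was 7.19, 9.33 and 12.2 CPM in controls and 21.6, 22.7 and 26.3 CPM in K5-RANKL libraries, 2.46-fold in the means. All 5 leukocyte markers rose, Laptm5, a lysosomal membrane protein gene of blood cells, by 1.46 (SE 0.08), and their sum went from 292 to 325 CPM up to 643 to 700 CPM, 2.17-fold. For each 100 CPM of leukocyte markers there were 2.46, 2.89 and 3.76 CPM of granule proteases in controls and 3.08, 3.27 and 4.09 CPM in K5-RANKL libraries. These ranges overlap. All 6 macrophage markers in the table rose, C1qa by 2.77 (SE 0.08), and their sum rose 5.37-fold in the means, from 200 ± 13.5 to 1070 ± 20.7 CPM (SD, n = 3 each). Beside these marker counts, 34.2% of all genes tested rose. The part of the wider leukocyte change in the rise of the granule proteases was not tested.

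**Figure D4:**
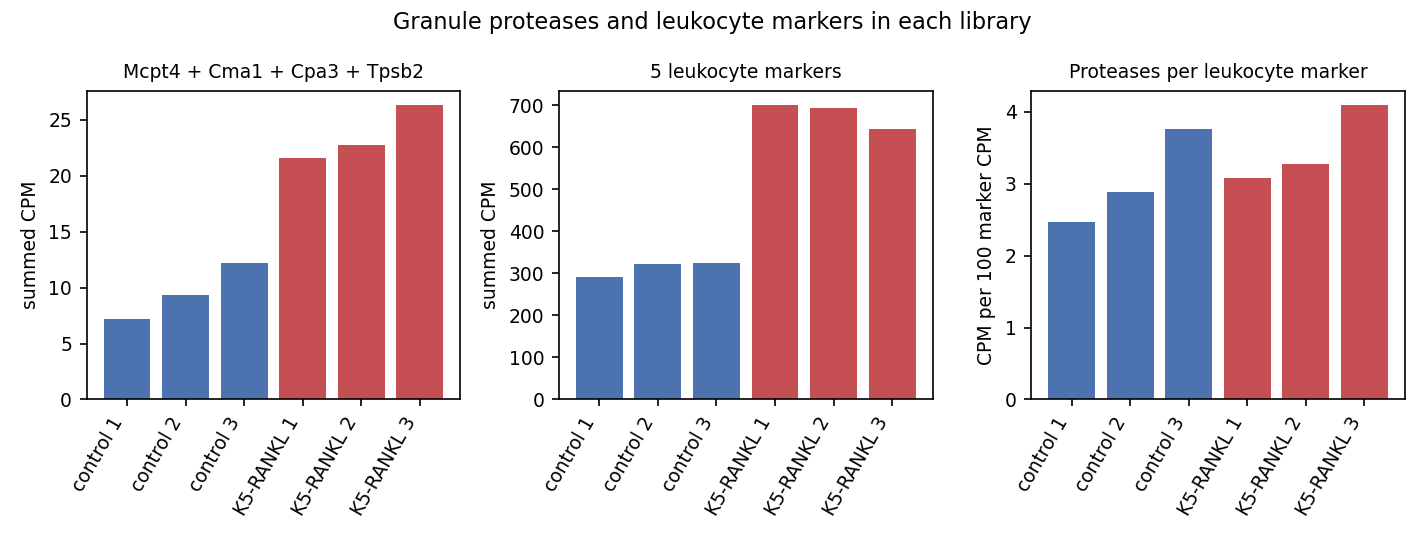
Summed CPM of 4 granule protease genes (left), summed CPM of 5 leukocyte markers (middle) and granule protease CPM per 100 CPM of leukocyte markers (right) in each library, controls in blue and K5-RANKL in red. Both sums are apart between groups, and their quotient overlaps at 2.46 to 3.76 in controls and 3.08 to 4.09 in K5-RANKL libraries.

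Other granule proteases stayed at the edge of detection. Mcpt1 and Mcpt2, the chymase genes of mucosal mast cells, had 0 and 1 counts over the controls and 14 and 10 over the K5-RANKL libraries. Mcpt8 and Prss34, protease genes of basophils, had 0 and 3 against 4 and 4. Ctsg had 1 and 7, Cma2 0 and 2, and Mcpt9 none at all. None of these 8 genes, Tpsg1 included, could be tested. Without a filter on low counts edgeR called Mcpt1 alone (adjusted p = 0.0199). Few 50-base words were shared exactly with relatives. Of the words of Mcpt4 transcripts 5.48% also occur in Cma2 or Mcpt9, and of those of Cma1 5.38% in the predicted gene Gm48934. Shorter or inexact matches were not searched, and the read length was not known.

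Of 13 other surface and membrane markers of mast cells and basophils 9 were tested, of which 5 rose, 1 fell and 3 missed the threshold (median 1.35; Adora3, which rose, and Rgs13 passed the filter through the K5-RANKL libraries). Over all genes tested 34.2% rose and 32.1% fell. Il1rl1, which encodes the interleukin 33 receptor ST2, rose by 2.59 (SE 0.18, edgeR adjusted p = 1.53e-09) from 1.43 ± 0.189 to 8.72 ± 0.565 CPM. Csf2rb2, a receptor subunit gene for interleukin 3, rose by 2.11 (SE 0.12, edgeR adjusted p = 3.36e-10) from 11.5 ± 2.57 to 49.7 ± 2.82 CPM. Enpp3, an ectoenzyme gene of basophils and mast cells that epithelia express too, fell by 1.37 (SE 0.08, edgeR adjusted p = 1.57e-10) from 53.2 ± 3.25 to 20.6 ± 0.961 CPM (SD, n = 3 each). Slc18a2, the gene of the transporter that loads histamine into granules, stood at −0.24 (SE 0.31, edgeR adjusted p = 0.512) and was named after its value was seen. The mast cell receptor genes Mrgprb1 and Mrgprb2, at 9 and 3 counts over the controls and 15 and 4 over the K5-RANKL libraries, and the basophil gene Cd200r3, at 0 and 6, were not tested.

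All 13 genes of IgE receptor signalling rose, with a median of 1.10, where 34.2% of all genes tested rose and 32.1% fell. Syk, the kinase recruited to the receptor, rose by 2.08 (SE 0.08, edgeR adjusted p = 3.75e-13) from 23.3 ± 0.089 to 98.6 ± 3.16 CPM, and Inpp5d, an inhibitory phosphatase gene, by 1.87 (SE 0.09) from 18.2 ± 1.69 to 66.8 ± 5.32 CPM (SD, n = 3 each). Many leukocytes express these genes. Of 12 genes for making, storing or breaking down mediators 11 rose and Hnmt fell. Of the 11, Ltc4s, Alox5, Ptgs2, Tph1 and Aoc1 passed the filter through the K5-RANKL libraries. Srgn, whose proteoglycan core binds granule proteases, rose by 1.59 (SE 0.08, edgeR adjusted p = 2.58e-11) from 24.5 ± 1.24 to 74.0 ± 4.73 CPM. Alox5ap, needed for leukotriene synthesis, rose by 2.22 (SE 0.13, edgeR adjusted p = 1.46e-10) from 4.32 ± 0.57 to 20.1 ± 1.84 CPM (SD, n = 3 each).

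Of 11 growth factors, cytokines and mediator receptors 7 were tested, 6 rose and Kitl fell. Among all genes tested 34.2% rose and 32.1% fell. Of the 6 growth factors and receptors that rose, Tslp, Hrh1 and Hrh2 passed the filter through the K5-RANKL libraries. Il33, an alarmin that activates mast cells through ST2, rose by 1.67 (SE 0.10, edgeR adjusted p = 1.64e-10) from 14.7 ± 2.34 to 46.5 ± 1.45 CPM. Il9r, a receptor gene for the mast cell growth factor interleukin 9, rose by 2.34 (SE 0.23, edgeR adjusted p = 8.16e-08) from 0.998 ± 0.107 to 5.09 ± 0.539 CPM (SD, n = 3 each). The cytokine gene Il3 had no count in any library, Il9 had 0 counts over the controls and 2 over the K5-RANKL libraries, and Il4 had 1 and 8. Of 12 transcription factors of mast cell and basophil development 11 were tested, of which 5 rose, 2 fell and 4 missed the threshold (median 0.29). With 34.2% and 32.1% of all genes called, these counts do not set that list apart. Spi1, a factor of myeloid cells, rose by 2.25 (SE 0.10, edgeR adjusted p = 3.92e-12) and Runx1 by 0.75 (SE 0.10), while Lmo2, a partner of GATA2 and TAL1, fell by 0.83 (SE 0.09, edgeR adjusted p = 3.06e-07) and Stat5b by 0.23 (SE 0.08, edgeR adjusted p = 0.0121). Mitf, needed for mast cells, stood at 0.19 (SE 0.12, edgeR adjusted p = 0.162) and Gata1 had 5 counts over the controls and 15 over the K5-RANKL libraries; both were named after their values were seen. By library totals neither Lmo2 nor Stat5b fell.

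**Figure D5:**
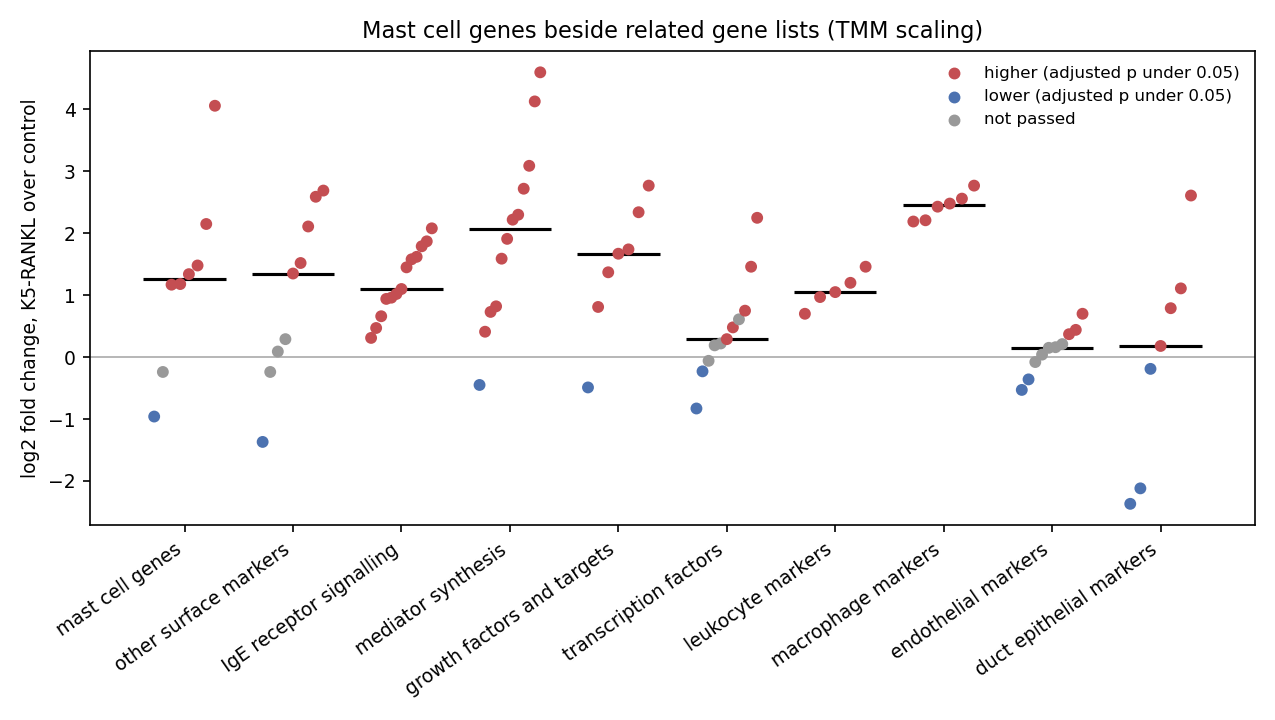
Log2 fold change of K5-RANKL over control with TMM scaling (y axis) for the tested genes of 10 lists (x axis). Each point is a gene, red where it was higher, blue where lower and grey where it did not pass at an adjusted p under 0.05, and black lines are list medians. The mast cell genes have a median of 1.26, the IgE receptor signalling genes 1.10, the leukocyte markers 1.05 and the macrophage markers 2.45.

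The remaining marker lists were checked in the same way, again beside 34.2% of all genes tested that rose and 32.1% that fell. Of 4 eosinophil markers Ccr3 had 0 control counts and 64 K5-RANKL counts and was the one that reached the test, through the K5-RANKL libraries. Prg2 had 39 and 16 counts, Epx had 0 and 2, and Ear6 had none in any library. Their summed level was 0.785 to 1.56 CPM in controls and 1.16 to 1.44 CPM in K5-RANKL libraries. Of 5 lymphocyte markers 3 rose and 2 did not pass, the latter including Cd79a at 0.16 (edgeR adjusted p = 0.149), with a summed level of 83.3 to 93.1 CPM and 116 to 129 CPM. Of 6 fibroblast markers 5 rose and Dcn did not pass, and Col3a1 rose by 3.13 (SE 0.15), with a summed level of 503 to 657 CPM and 2420 to 2830 CPM.

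Likeness to Cpa3 was measured by Pearson's r of log2 CPM over the 6 libraries after each group's mean was taken away. With predicted gene models left out, none of the 10 genes most like it was a mast cell gene. They were Egr1, L3mbtl3 and Tbc1d2b at 0.999 each, followed by Lair1, Dnmt3b, Sox4, Plekha6, Adamtsl4, Ccl12 and Slit2, the last at 0.995. Hdc had r = 0.864 and ranked 938th of 14043 genes, a rank in which predicted models were included. The values were 0.728 for Kit, 0.682 for Mcpt4, 0.5 for Cma1, −0.0493 for Tpsab1, −0.278 for Gata2 and −0.479 for Tpsb2. These are descriptions over 6 libraries, in which control 1, with 7 counts of Cpa3, stood at −1.81 relative to the mean log2 CPM of the other controls. Over the 6 libraries with group means left in, r was 0.948 for Hdc, 0.894 for Mcpt4, 0.841 for Cma1, 0.768 for Tpsab1, 0.714 for Tpsb2, −0.487 for Gata2 and −0.699 for Kit, values that largely restate the difference between groups.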

How the data were processed

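The authors deposited raw read counts per gene, whole numbers with a different sum in each library. Per the submitters' processing notes reads were aligned with STAR to mm10, the same assembly as GRCm38; the counting tool, annotation and strand setting were not known from the sources used. Libraries were made with a strand-specific mRNA kit, per the labels' protocols. Groups follow the genotype label; replicate numbers only name libraries. No pair of libraries within a group was a copy (chi-square per gene 6.26 to 38.3, where sampling noise gives about 1).

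Counts were filtered with edgeR's filterByExpr (minimum count 10; 14044 of 18769 genes with a count), scaled by TMM (mean factor 0.708 ± 0.0293 for controls, 1.41 ± 0.0802 for K5-RANKL, SD, n = 3) and tested with the robust quasi-likelihood F-test, two-sided, with Benjamini-Hochberg adjustment over all genes. The SE is the log2 fold change over the square root of F. The test was checked on simulated data in which few genes changed. The TMM factors of the groups were not made to differ there as they do here, so the check does not cover that setting. Ratios used 0.5 added counts. Fits ran in edgeR 4.0.16 under R 4.3.3, and the alternatives also in DESeq2 1.42.0 and limma 3.58.1.

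Positions and promoters are RefSeq's (GRCm38.p6), matched by Entrez identifier or symbol. The members and lists were chosen with earlier results of these data known. Named besides the 9 genes are, by rule, the 2 called genes with the smallest p in each direction of a companion list. The marker of each other cell type with the highest mean CPM over all libraries is named by rule too. So are the 10 genes most like Cpa3, with predicted models left out. Others are named to account for a list, and were picked after their values were seen. Intervals cover counting error only.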

Additional observations from a re-analysis of the deposited data

How the results depend on the processing

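The alternatives were RLE, upper-quartile, library-total and trimmed TMM scaling, no or a stricter low-count filter (50 counts in 3 libraries), DESeq2, limma-voom and leaving out each library. Mcpt4, Cma1, Cpa3, Tpsb2, Tpsab1 and Hdc kept a rise past the threshold under every alternative that tested them; the stricter filter left out Tpsab1, Hdc and Gata2. By library totals Kit stood at 0.03 and Gata2 at 0.76. The genes called were 11733 higher and 698 lower (94.4% of calls higher, in place of 51.6%), which is 83.5% and 4.97% of all genes tested. On that scale 0 mast cell genes, 0 mediator genes, 0 growth factors or targets and 0 transcription factors were lower. Of the genes tested, 8 of 9 surface markers and 10 of 11 transcription factors were higher. Beside the shares of all genes, these counts do not set the lists apart. Without a low-count filter 1 of the other proteases was higher. Leaving out a library gave 0 to 1 lower growth factors or targets (0 without control 1), 1 to 2 lower transcription factors (1 without control 3 or K5-RANKL 3), −0.90 to 0.03 for the ratio of Cma1 to Cpa3 and −0.82 to 0.35 for that of Tpsb2, both turned without control 1. The causes were not tested. No paired analysis was possible because the labels give no replicate numbers shared between groups. Depth left Ms4a2, Fcer1a and the other mast cell and basophil proteases untested.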
